A study of Mus musculus with 2 samples.

Results

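The 37 genes of the mouse mitochondrial genome were examined in RNA-Seq reads from 2 fetal brains. These genes are all those that the GENCODE vM1 annotation places on chrM, out of 37310 annotated genes, and they comprise 2 rRNA, 13 mRNA and 22 tRNA genes on a circular chromosome of 16299 bases. Each library came from a single F1 brain, taken whole at E17.5, with poly(A)+ RNA selected on Dynabeads from Trizol-extracted total RNA. The BxC embryo had a C57BL/6J mother and a CastEi/J father, and the CxB embryo had a CastEi/J mother and a C57BL/6J father. No treatment, transgene or deletion is listed for either. There was 1 library per cross, so there is no replicate spread, no difference between the crosses could be tested, and every interval given covers counting error only.

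Mitochondrial DNA is passed on by the mother, so the labels place a C57BL/6J mitochondrial genome in the BxC brain and a CastEi/J mitochondrial genome in the CxB brain. The reference sequence is that of C57BL/6J. Transcription runs around nearly the whole circle on both strands. The long transcripts are cut at the tRNAs that lie between most of the genes, which releases the rRNAs and the mRNAs. The mRNAs encode subunits of complexes I, III, IV and V of the respiratory chain, all other subunits of which come from nuclear genes. Past fragments of mitochondrial DNA have also been copied into the nuclear chromosomes, and such copies can match the mitochondrial genome base for base.

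The alignments held 128944754 reads in BxC and 109719746 in CxB, with the count on each line taken as reads, a meaning inferred from the values. Both totals exceed the average yield per library that the study gives, and the reason was not tested. All mitochondrial reads were 36 bases long. Reads on chromosome Y amounted to 14.4 RPM (reads scaled to 1000000 reads of the library) in BxC and 166 RPM in CxB, so the cross, the sex and the individual embryo cannot be told apart. Neuronal and radial glial markers were abundant in both libraries, among them Tubb3 (1819 and 1570 RPM in BxC and CxB), Dcx (862 and 943 RPM) and Fabp7 (190 and 200 RPM). Markers of liver, muscle and skin lay between 0 and 3.61 RPM in both. Hemoglobin transcripts were present, with Hbb-b1 at 162 and 132 RPM. In RNA from a whole organ, fewer cells of a type and less RNA per cell cannot be told apart.

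The authors kept reads that aligned to a single place, so a stretch that also occurs in the nuclear genome can hold no reads however abundant its RNA is. Every 36-base window of chrM was therefore compared with the nuclear genome of the same build, mm9. Of 16264 windows, 6363 (39.1%) had an exact nuclear copy, lying in 52 runs along chrM and on 11 nuclear chromosomes. A further 1721 windows had a closest copy with 1 mismatch and 1536 a closest copy with 2 mismatches. The remaining 6644 windows had no copy within 2 mismatches. The longest copy paired chrM:6394-11042, 4649 bases from mt-Co1 to mt-Nd4, with chr1:24618374-24623023 on the minus strand, and 4551 of the 4614 windows in it were exact.

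The sequences below show how close this copy is, with chrM on the first line of each pair, the chromosome 1 copy read on the same strand on the second, and bases that differ in capitals. The first pair, chrM:6379-6408 within the coding exon of mt-Co1 and chr1:24623009-24623038, spans the edge of the copy. The sequences differ at 7 of the 30 bases and are identical after the last capital.
mt-Co1 edge: GtggTCtAAcCggaAttgttttatccaact
chr1 copy: AtggATtGGcAggaTttgttttatccaact
The next pair, chrM:9447-9476 and chr1:24619941-24619970, crosses from mt-Tg into mt-Nd3. It holds T9461C, with the chrM base first, the chrM position next and the copy's base last.
mt-Tg/mt-Nd3: cagaagagagtaatTaacctgtacactgtt
chr1 copy: cagaagagagtaatCaacctgtacactgtt
The last pair lies in mt-Tr, the tRNA gene for arginine, at chrM:9811-9840 and chr1:24619577-24619606, where a run of 8 A in chrM faces 9 A in the copy.
mt-Tr: taattagtttaaaaaaaattaatgatttcg
chr1 copy: taattagtttaaaaaaaaattaatgatttc
These 2 differences made the only gaps in the copy. The 36 windows over base 9461 held 62 reads in BxC and 2 in CxB, and the 27 windows over the A run held 24 reads in BxC and 73 in CxB.

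Reads were almost absent where the nuclear genome held an exact copy. Of the 6363 start positions of such windows, 11 had a read in BxC (0.173%, exact 95% interval 0.0863 to 0.309%) and 3 in CxB (0.0471%, 0.00972 to 0.138%), with 36 and 7 reads in all. In BxC the other windows were read alike whatever their distance to a copy, with 94.1% of the starts covered at 1 mismatch, 96.3% at 2 mismatches and 93.4% without a copy. In CxB coverage followed that distance. It was 54.6% (52.2 to 56.9%) at 1 mismatch, 63.6% (61.1 to 66.0%) at 2 mismatches and 86.9% (86.1 to 87.7%) without a copy.

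**Figure D1:**
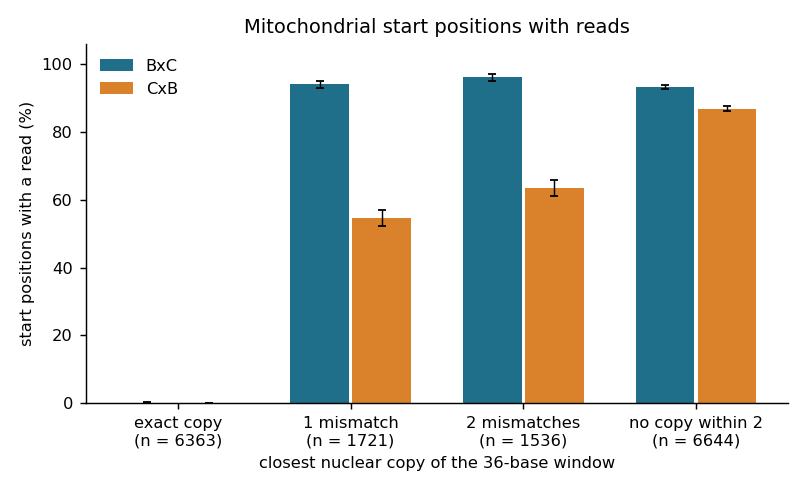
Percent of chrM start positions with at least 1 read (vertical axis) by the closest nuclear copy of the 36-base window, in BxC and CxB, with exact 95% binomial intervals that cover counting error only. Exact copies stand at 0.173% and 0.0471%; at 1 mismatch BxC stands at 94.1% and CxB at 54.6%.

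Many of the starts that were missing from CxB had at least 10 reads in BxC, most often those with a close copy. They were 596 of the 782 missing starts at 1 mismatch, 473 of 559 at 2 mismatches and 230 of 869 without a copy. Of the 1469 starts with a 1-mismatch copy and at least 10 reads in BxC, 596 (40.6%) had no read in CxB. The same held for 473 of 1377 (34.4%) at 2 mismatches and for 230 of 5381 (4.27%) without a copy. In the opposite direction there were 1 of 787, 2 of 622 and 1 of 4994. Missing starts were thus nearly all in the library of the CastEi/J mother. The alignments list no bases, so whether sequence differences between the maternal strains account for the missing starts was not tested.

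Sequences of 3 start positions show the contrast, given as the first 30 bases from the start on the plus strand. The start in mt-Co1 at chrM:5409-5438 had 6332 reads in BxC and 0 in CxB. It was taken from the leading starts by BxC reads among those without CxB reads whose closest copy had 1 mismatch. It need not be the first of them, since the mismatch had to lie in the 30 bases shown and copies on 1 chromosome were passed over. Its copy at chr2:22445057-22445086, on the minus strand, differs by G5414A, shown in capitals.
mt-Co1 start: atagtGggtactgcactaagtattttaatt
chr2 copy: atagtAggtactgcactaagtattttaatt
The start in mt-Nd4 at chrM:11496-11525 had 3325 reads in BxC and 0 in CxB. This was the most of any start without CxB reads and without a copy within 2 mismatches.
mt-Nd4 start: cttattcttctaactaccagtccaaaacta
The start with the most reads on the chromosome was the same in both libraries. It lay in mt-Nd1, at chrM:3405-3434, with 94156 plus-strand reads in BxC and 115343 in CxB.
mt-Nd1 start: ccattcgcgttattctttatagcagagtac

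Mitochondrial reads made up 1.46% of the BxC library (1886066 reads, exact 95% interval 1.461 to 1.465%) and 1.28% of the CxB library (1399303 reads, 1.273 to 1.277%). The whole chromosome was thus lower in CxB, at 12753 against 14627 RPM, a log2 ratio of CxB over BxC of -0.20 (-0.20 to -0.19). The direction depended on which windows were read. Windows without a copy within 2 mismatches were higher in CxB, at 10319 against 9413 RPM, a log2 ratio of 0.13 (0.13 to 0.14). Windows with a copy at 1 mismatch gave 1500 RPM in CxB against 2664 in BxC, a log2 ratio of -0.83, and those with a copy at 2 mismatches gave 935 against 2550 RPM, a log2 ratio of -1.45.

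A large part of the reads fell on few places. A place is a start position on a strand, and 17826 places were used in BxC and 14246 in CxB. Of the 19802 places without an exact copy, 17814 (90.0%) and 14243 (71.9%) were used. The median used place had 19 reads in BxC and 16 in CxB. The 10 places with the most reads held 15.3% and 19.0% of all mitochondrial reads, and the top 100 held 38.4% and 44.2%. Reads piled on a place may be copies of a molecule, which the files cannot show. Over places without a copy within 2 mismatches, the reads per place of the libraries were alike in rank, with a Spearman correlation of 0.80 across 13288 places, against 0.34 across 6514 places with a copy at 1 or 2 mismatches. Both are descriptions of places that share a base composition and, within a library, a depth.

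By class, the mRNAs accounted for most of the mitochondrial reads. They held 89.0% in BxC (exact 95% interval 88.96 to 89.05%) and 87.1% in CxB (87.05 to 87.16%), the rRNAs 10.4% (10.40 to 10.48%) and 12.5% (12.44 to 12.55%), and the tRNAs 0.216% (0.210 to 0.223%) and 0.202% (0.195 to 0.209%). The rest, 0.344% and 0.199%, fell between the genes and in the control region, from which transcription starts. The classes were not equally readable, since 6.15% of the rRNA windows, 45.5% of the mRNA windows and 47.9% of the tRNA windows had an exact copy. Counted per start without a copy within 2 mismatches, the mRNAs had 287 reads in BxC and 266 in CxB, the rRNAs 76.4 and 75.0, and the tRNAs 5.74 and 4.09. The order of the classes was therefore the same on both scales. The libraries were made from poly(A)-selected RNA, so these levels are those of the selected RNA.

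Bases without a read numbered 5358 (32.9%) in BxC and 5752 (35.3%) in CxB. Of these, 5348 were shared, 10 were bare only in BxC and 404 only in CxB. Windows with an exact copy were the sole windows over 5322 bases, and of these bases 5317 lacked a read in BxC and 5321 in CxB. Outside them, 41 bases lacked a read in BxC and 431 in CxB. These include the ends of the linear reference, chrM:1-16 and chrM:16295-16299 in BxC and chrM:1-14 and chrM:16290-16299 in CxB. No window was laid across the point where the circle is opened. The longest bare stretch ran from mt-Co1 to mt-Tg, over 2997 bases in BxC (chrM:6429-9425) and 3013 in CxB (chrM:6419-9431). The median depth over all bases was 1170 reads in BxC and 278 in CxB, and the highest depth, in mt-Nd1, was 159885 and 219680 reads. Bare bases were found in 47 and 105 of 2537 rRNA bases, 4506 and 4636 of 11338 mRNA bases, and 540 and 608 of 1490 tRNA bases.

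Of the 37 genes, 11 had 0 reads in both libraries when each read was given to the gene that holds its largest part, and all windows of all 11 had an exact nuclear copy. They were mt-Co2 and mt-Co3, which encode subunits of complex IV, mt-Atp6 and mt-Atp8, subunits of the ATP synthase, mt-Nd4l, a subunit of complex I, and the tRNA genes mt-Tn, mt-Ty, mt-Ts1, mt-Td, mt-Tk and mt-Th. In 9 of the 11 no base was covered. In mt-Tn and mt-Th, reads that lay mostly outside the gene covered a few bases at its edge. With every window copied, these zeros are not a measure of expression, and no fold or limit is given for them. In mt-Nd3, of complex I, 94.3% of the windows had an exact copy, and its 47 reads in BxC and 1 in CxB came from the windows that remained. Every base was read in 13 genes in BxC and in 11 in CxB.

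**Figure D2:**
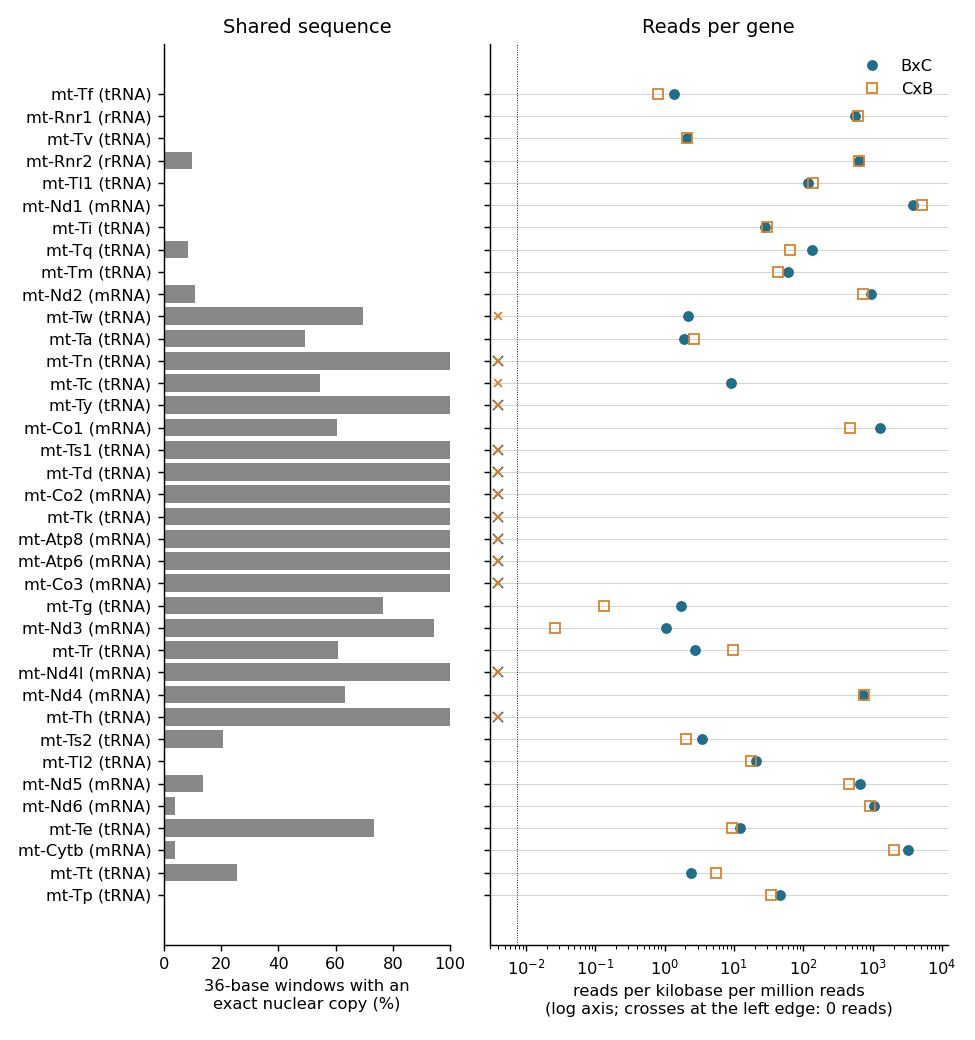
For each of the 37 genes in chromosome order, the left panel shows the percent of 36-base windows with an exact nuclear copy and the right panel the RPM per kilobase of gene (log axis) in BxC and CxB, with crosses at the left edge for 0 reads. The 11 genes at 100% on the left have 0 reads in both libraries.

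The 15 genes with at least 100 reads in each library comprised both rRNAs, 7 mRNAs and 6 tRNAs. Per length, mt-Nd1 was the highest of all in both libraries. This subunit of complex I had 468747 reads in BxC and 546197 in CxB, or 3799 and 5202 RPM per kilobase. Its leading start alone held 20.1% and 21.1% of these reads. Not divided by length, the gene was at 3635 and 4978 RPM with this start and at 2905 and 3927 RPM without it. mt-Cytb, the mitochondrially encoded subunit of complex III, followed with 472721 and 252745 reads, or 3205 and 2014 RPM per kilobase. The lead of mt-Nd1 did not hold for the median start without a copy within 2 mismatches. That median was 0.485 RPM in BxC and 0.492 in CxB for mt-Nd1. It was higher for mt-Cytb, at 0.799 and 0.556, and for mt-Nd4, at 0.566 and 0.510.

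mt-Co1, the catalytic subunit of complex IV, had 256452 and 78808 reads. Exact copies took 60.6% of its windows, so its reads were counted per start that could be read, giving 422 reads in BxC and 130 in CxB. On this scale mt-Nd1 had 490 and 571 and mt-Cytb 429 and 229. mt-Co1 was thus close to mt-Cytb in BxC. Per kilobase, a scale that ignores the missing windows, mt-Co1 stood at 1287 and 465 RPM.

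Among the other complex I subunits, mt-Nd4 had 128256 and 113217 reads, or 253 and 224 per readable start. This was below mt-Co1 in BxC and above it in CxB, although 63.2% of the mt-Nd4 windows had an exact copy. Of the readable starts, 584 of 608 in mt-Co1 had a copy at 1 or 2 mismatches, against 34 of 506 in mt-Nd4. Such starts were often missing from CxB, so the order in CxB is not a comparison of like starts. mt-Nd6, the only mRNA encoded on the minus strand, had 69081 and 51538 reads, or 140 and 105 per readable start. Reads of either strand were counted, and 51658 and 42518 of these lay on the strand of mt-Nd6. Reads from a plus-strand transcript across it could not be told apart. mt-Nd2 had 128539 and 83700 reads, or 139 and 90.5 per readable start, and mt-Nd5 had 154773 and 92613, or 98.8 and 59.1.

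By mean reads per readable start, both rRNAs were below all 7 of these mRNAs in BxC, and in CxB below all of them but mt-Nd5. The order did not hold for the median start without a copy within 2 mismatches. There mt-Rnr2, at 0.287 RPM in BxC and 0.365 in CxB, was above mt-Nd2 (0.279 and 0.310), mt-Nd6 (0.264 and 0.232) and mt-Nd5 (0.240 and 0.182). mt-Rnr1, at 0.233 and 0.228, was below all 7 in BxC and above only mt-Nd5 in CxB. mt-Rnr2, the rRNA of the large ribosomal subunit, had 127726 reads in BxC and 110868 in CxB, or 89.6 and 77.7 per readable start. mt-Rnr1, the rRNA of the small subunit, had 69154 and 64012 reads, or 72.3 and 67.0 per readable start. A Poisson interval at 95% on the mt-Rnr1 count runs from 68640 to 69671 reads in BxC and from 63517 to 64510 in CxB.

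The 22 tRNA genes together had 4081 reads in BxC and 2825 in CxB. Reads were at 0 for 6 of them in BxC and 8 in CxB, the latter adding mt-Tw and mt-Tc, which had 19 and 77 reads in BxC. The most reads over both libraries fell on mt-Tl1, a tRNA gene for leucine, with 1139 and 1145, on mt-Tq, for glutamine, with 1235 and 497, and on mt-Tm, for methionine, with 529 and 322. In each library the 3 leading tRNA genes held about 70% of the class, 71.1% in BxC and 69.5% in CxB. The fewest were the 6 genes at 0 in both libraries named above. Only 65.9% and 66.7% of the tRNA reads lay wholly inside the gene, and the rest ran into a neighbor. Wholly inside mt-Tm lay 126 of its 529 reads in BxC and 90 of its 322 in CxB. For mt-Tp it was 319 of 404 and 175 of 254, so the place of mt-Tm among the leading 3 rests on reads that run past the gene. A tRNA is short against a read of 36 bases, so the share wholly inside depends on gene length as well as on the RNA.

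Between the crosses, 3 of the 15 genes were over 1.5-fold lower in CxB and 0 were over 1.5-fold higher, on reads scaled by the library total. Among 14475 nuclear genes with at least 100 reads in each library, 1.02% passed this fold, 0.573% as lower in CxB and 0.449% as higher. The 3 genes were mt-Co1, with a log2 ratio of CxB over BxC of -1.47 (-1.48 to -1.46), mt-Tq, at -1.08 (-1.23 to -0.93), and mt-Cytb, at -0.67 (-0.68 to -0.66). The median log2 ratio of the 15 genes was -0.24, with single genes from -1.47 to 0.45, against a median of 0.00 for the nuclear genes. The median of the mitochondrial genes was nearer to 0 under several other settings, but not under all. It was -0.06 over starts without a copy within 2 mismatches and -0.08 over distinct positions. With scaling by the mitochondrial reads it was -0.04, and with any overlap on the sense strand -0.05. It was -0.19 with a minimum of 10 reads, -0.24 with scaling by the median nuclear gene and -0.30 with a minimum of 1 read. mt-Nd1 was the highest, at 0.45 (0.45 to 0.46). The rRNAs lay near 0, with mt-Rnr1 at 0.12 and mt-Rnr2 at 0.03.

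Over starts without a copy within 2 mismatches, a setting chosen after the data were seen, 14 genes kept at least 100 reads in each library. In these, 3 were over 1.5-fold lower in CxB (mt-Co1, mt-Tq and mt-Tp) and 1, mt-Tl1, was over 1.5-fold higher. The direction turned for mt-Nd2, from -0.39 over all starts to 0.30 (0.29 to 0.32). The log2 ratio of mt-Rnr2 rose to 0.28 (0.26 to 0.29), while mt-Nd1 stayed at 0.46 and mt-Rnr1 at 0.12. mt-Cytb was at -0.50 (-0.51 to -0.49), mt-Nd5 at -0.24 against -0.51 over all starts, and mt-Nd6 at -0.39 against -0.19. mt-Co1 was at -1.83, but only 24 of its windows had no copy. mt-Nd4 was at 0.15 against 0.05.

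**Figure D3:**
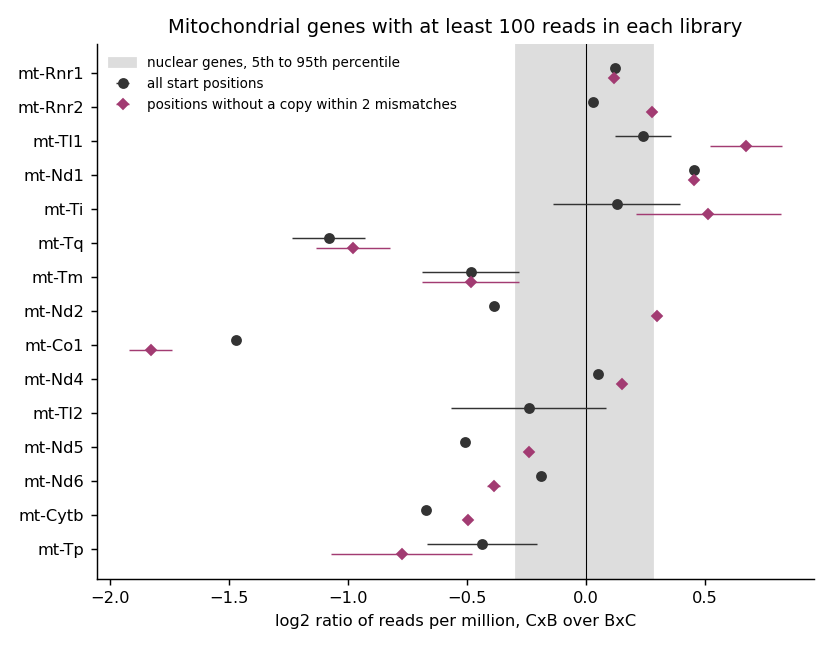
Log2 ratio of CxB over BxC in RPM (horizontal axis) for the 15 mitochondrial genes with at least 100 reads in each library, over all start positions (circles) and over those without a nuclear copy within 2 mismatches (diamonds, where at least 100 reads remain), with 95% binomial counting intervals. The gray band is the 5th to 95th percentile of 14475 nuclear genes; mt-Nd2 lies at -0.39 over all starts and at 0.30 over starts without a copy.

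The starts that vanished in CxB were spread unevenly over the genes. In mt-Nd2, of 352 starts with a copy at 1 or 2 mismatches and at least 10 reads in BxC, 252 had no CxB read, against 16 of 531 starts without a copy. In mt-Co1 there were 204 of 584 against 4 of 24, in mt-Nd5 248 of 581 against 77 of 866, in mt-Cytb 127 of 511 against 60 of 551, and in mt-Nd6 66 of 317 against 8 of 146. In mt-Rnr2 there were 141 of 411 against 0 of 957. mt-Rnr1, which has hardly any copies, lost 0 of 805. Of starts without a copy, mt-Nd1, which also has hardly any copies, lost 29 of 909, and mt-Nd4 lost 16 of 457. Among these genes the mRNAs thus also lost starts where no close copy exists, and the rRNAs lost 0 of such starts.

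After scaling to the library totals, depth in CxB was under 1/4 of that in BxC over 54 stretches and 1957 bases. The opposite held over 18 stretches and 190 bases, the widest of 37. The widest stretch with low CxB depth was 121 bases of mt-Nd2 (chrM:4689-4809), with a mean depth of 2534 reads in BxC and 54.0 in CxB. The next were 117 bases of mt-Nd2 (chrM:4468-4584), at 8456 and 37.5, then 104 bases each of mt-Rnr2 (chrM:1756-1859), at 4070 and 48.7, and of mt-Co1 (chrM:5346-5449), at 13361 and 21.8. Each of these 4 stretches was covered chiefly by windows with a close or exact copy. A stretch of 96 bases in the control region (chrM:15492-15587) differed in that none of its 131 windows had a copy within 2 mismatches, and its mean depth was 301 and 14.4.

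Reads were uneven along the genes. Each gene was cut into 5 equal parts from 5′ to 3′, and reads were counted over starts without a copy. In mt-Nd1 the reads per start were 137, 139, 185, 1426 and 572 in BxC and 207, 234, 101, 1545 and 782 in CxB. The peak in the fourth part, seen in both libraries, holds the leading start named above. In mt-Rnr1 the parts ranged from 48.6 to 86.1 in BxC and from 41.4 to 88.0 in CxB, with the lowest in the second part in both. mt-Cytb began at 117 and 400 in BxC and 111 and 336 in CxB, but its last part had 514 reads per start in BxC and 42.7 in CxB.

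**Figure D4:**
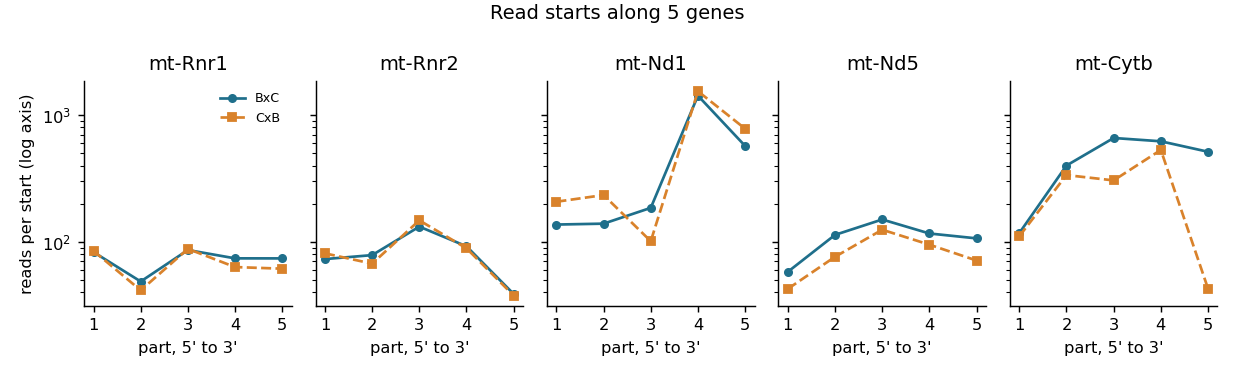
Reads per start position without a nuclear copy (log axis) in 5 equal parts of 5 genes, from 5′ to 3′ (horizontal axis), in BxC (circles) and CxB (squares). The libraries lie farthest apart in the last part of mt-Cytb (514 and 42.7), and both peak in the fourth part of mt-Nd1 (1426 and 1545).

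Gene boundaries were examined because transcripts that have been cut at them leave no read across them. A read was taken to cross where at least 8 of its bases lay on each side. The reads per start across a boundary were divided by those inside the flanking genes, pooled over both genes. Of 36 boundaries, 13 had at least 10 readable starts across them and at least 100 reads inside the flanking genes in each library. The median crossing was 5.28% in BxC and 3.03% in CxB, and it was under 10% at 9 and 10 of the 13. Some sequences at these boundaries follow, 15 bases on each side on the plus strand, with the downstream gene in capitals. They are chrM:1010-1039, chrM:1079-1108, chrM:54-83, chrM:3899-3928 and chrM:2736-2765.
mt-Rnr1/mt-Tv: tgtgcttggaataatCATAGTGTAGCTTAA
mt-Tv/mt-Rnr2: caatgaacactctgaACTAATCCTAGCCCT
mt-Tf/mt-Rnr1: tgtatcccataaacaCAAAGGTTTGGTCCT
mt-Tm/mt-Nd2: atccttcccgtactaATAAATCCTATCACC
mt-Tl1/mt-Nd1: atcctctccctaataGTGTTCTTTATTAAT

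By the mean of the libraries, the lowest crossing relative to the pooled reads inside both genes was at both ends of mt-Rnr1 and at the start of mt-Rnr2. Between mt-Rnr1 and mt-Tv, the tRNA gene for valine, there were 0 crossing reads in either library over 21 starts, against 72.5 reads per start inside the genes in BxC and 67.1 in CxB. A count of 0 allows up to 3 reads. Between mt-Tv and mt-Rnr2 there were 6 and 11 crossing reads, or 0.320% and 0.677%. Between mt-Tf, the tRNA gene for phenylalanine, and mt-Rnr1 there were 8 and 6, or 0.551% and 0.447%.

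The highest crossing by the mean of the libraries was between mt-Tt and mt-Tp, which lie on opposite strands, at 21.4% in BxC and 69.4% in CxB. These rest on 27 and 49 crossing reads and on 6.02 and 3.36 reads per start inside. Between mt-Ti and mt-Tq, also on opposite strands, it was 6.59% and 41.8%, from 24 and 63 reads. Between mt-Tm and mt-Nd2 it was 13.8% and 12.2%, from 399 and 231 reads. The start of mt-Nd1 was crossed less, at 5.28% and 2.76% from mt-Tl1, and its end still less, at 1.26% and 1.39% into mt-Ti. Between mt-Rnr2 and mt-Tl1, the leucine tRNA gene, the crossing was 5.86% and 4.35%. The end of mt-Nd2 was crossed into mt-Tw by 33 reads in BxC, or 1.21%, and by 0 in CxB. On this pooled scale, boundaries of an mRNA or rRNA gene among the 13 were crossed at most at 13.8%. The values over 20% were between tRNA genes with few reads. A long gene beside a tRNA gene sets most of the divisor, so these percents do not measure how completely the tRNA was cut free. From mt-Tm into mt-Nd2, 19.0 and 11.0 reads per start crossed, against 7.56 and 4.60 per readable start of mt-Tm. Between mt-Rnr2 and mt-Tl1, 5.24 and 3.38 crossed, against 15.2 and 15.3 for mt-Tl1. From mt-Tv into mt-Rnr2, 0.286 and 0.524 crossed, against 0.275 and 0.232 for mt-Tv. From mt-Tf into mt-Rnr1, 0.4 and 0.3 crossed, against 0.235 and 0.118 for mt-Tf. These 2 boundaries were thus low only against the rRNA, while that of mt-Rnr1 and mt-Tv had 0 crossing reads. Boundaries with fewer readable starts could be higher on the pooled scale. Between mt-Nd6 and mt-Te, both on the minus strand, the crossing was 42.3% and 55.1%, from 290 and 291 reads over 5 starts, and between mt-Nd5 and mt-Nd6, on opposite strands, it was 13.9% and 20.4% over 7 starts.

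**Figure D5:**
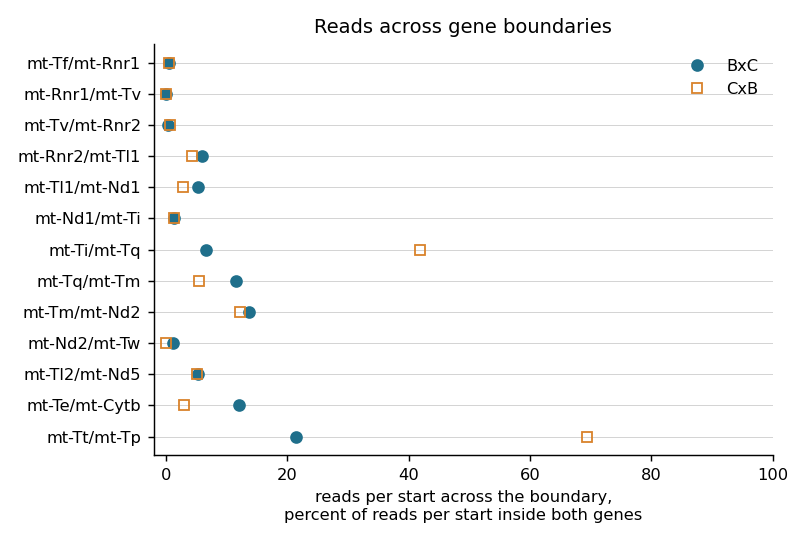
Reads per start across each of 13 gene boundaries, as a percent of the reads per start inside both flanking genes (horizontal axis), in BxC (circles) and CxB (squares), in chromosome order. The boundary of mt-Rnr1 and mt-Tv stands at 0 in both libraries, and that of mt-Tt and mt-Tp at 21.4% and 69.4%.

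Strand is of interest because the minus strand encodes mt-Nd6 and 8 of the tRNAs. The study describes libraries that keep the strand, but nuclear genes had a median of 43.7% of reads on their own strand in BxC (5th to 95th percentile 34.8 to 51.1%) and 43.1% in CxB (34.2 to 50.8%). The strands were thus not cleanly separated in these files. Mitochondrial genes were alike as a whole, with 54.8% and 55.1% of reads antisense. Of all mitochondrial reads, 56.7% in BxC and 57.5% in CxB lay on the minus strand, which is the sense strand of mt-Nd6. Among the mRNAs and rRNAs, mt-Nd6 had the highest sense share. It had 74.8% (exact 95% interval 74.5 to 75.1%) of reads on its own strand in BxC and 82.5% (82.2 to 82.8%) in CxB. Sense shares over 60% were seen in 1.79% and 1.67% of nuclear genes. mt-Tq, also on the minus strand, was at 93.4% and 97.0%, and mt-Tl1, on the plus strand, at 82.6% and 83.1%. Also on the plus strand, mt-Tl2 was at 73.2% and 82.5% and mt-Ti at 59.8% and 65.5%. Of the 6 tRNA genes with at least 100 reads in each library, 4 in BxC and 5 in CxB lay above the nuclear 95th percentile. mt-Tp, a minus-strand tRNA gene for proline, was at 32.9% and 48.0%, so a high sense share was not common to the minus-strand genes. The rRNAs lay between 41.0 and 43.9% in both libraries. mt-Co1 differed between the libraries, at 55.8% in BxC and 39.6% in CxB, as did mt-Nd2, at 38.9% and 52.5%.

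The nuclear genes of the same machinery were counted by another rule, as were all nuclear genes. A read counted for a gene if its first or last aligned base lay in exon bases of that gene alone. Of 75 nuclear genes for subunits of the respiratory chain and the ATP synthase, 75 had at least 100 reads in each library and 0 were over 1.5-fold apart in either direction, against 1.02% of all nuclear genes, so the list was near the background. Their median log2 ratio was -0.03. The lowest were Uqcr11, of complex III, at -0.41, and the complex I subunits Ndufb3 at -0.35 and Ndufs4 at -0.34. The highest were Atp5f1 and Atp5g3, of the ATP synthase, at 0.24 and 0.22, and Ndufs3, of complex I, at 0.21. Of 30 names listed for factors of mitochondrial transcription, RNA processing and replication, 26 were found and 25 had enough reads, and 0 passed 1.5-fold. Their median was 0.01. Polrmt, the mitochondrial RNA polymerase, was at 0.06, Tfam, which packages mitochondrial DNA and activates its promoters, at 0.14, and Lrpprc, which stabilizes mitochondrial mRNAs, at -0.02. The lowest were Mterfd3 at -0.34, Tfb2m, a transcription factor of the mitochondrial promoters, at -0.33 and Peo1, the replicative helicase, at -0.18. The highest were Fastkd5 at 0.37, Rg9mtd1, a subunit of the enzyme that cuts tRNA 5′ ends, at 0.26 and Fastkd3 at 0.26.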

How the data were processed

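The libraries analysed here were made from poly(A)+ RNA of 2 whole brains, 1 per cross. The study lists both male and female BxC brains of this stage and a male CxB brain, and its further BxC brains were not analysed here. Which of its BxC brains is behind this library is not given in the sources used here. Chromosome Y reads in this library were at 14.4 RPM, against 166 RPM in CxB. Per the labels the reads were aligned to mm9, with Novoalign named and its version not given in the sources used here, and the study's methods keep uniquely aligned reads. The fourth column of the deposited alignments is a count in whole numbers, not normalized. It was read as reads per line, a meaning inferred from the values. Neighboring lines at the same place were of the same strand in 29 of 7777610 cases in BxC and 17 of 6237911 in CxB. The other number on each line was not used, and 0 columns could not be assigned.

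Reads were summed over the 37 chrM genes of GENCODE vM1, which uses the same build, each read going to the gene with its largest part. The strands were not cleanly separated in the files, so reads of either strand were counted and the sense strand became an alternative, where the design had the reverse. RPM is reads scaled by the library total. Every 36-base window was searched against the nuclear genome with up to 2 mismatches, and a readable (usable) start is one without an exact copy. Alternatives were distinct positions, the first sequenced base, sense reads, other scalings, other minima, other overhangs and starts without a copy.

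Shares carry exact Clopper-Pearson intervals at 95%, counts Poisson intervals and ratios conditional binomial intervals. They cover counting error only, and no test between crosses was possible. Folds were read on genes with at least 100 reads in each library, beside all nuclear genes. Named were the rRNA and mRNA genes, the 3 tRNA genes at each end of the order by reads, the 3 boundaries with the highest and the lowest crossing, the widest stretches of low depth and the 3 nuclear genes at each end of each list. The other named genes, boundaries and sequences were chosen after their values were seen. The members and lists were chosen with earlier results of these data known. The calculations were tested on simulated data. Python 3.11.15, numpy 2.4.6, pandas 2.3.3, scipy 1.17.1 and numba 0.67.0 were used.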

Additional observations from a re-analysis of the deposited data

Results flagged for a closer look

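Reads assigned to the chromosome 1 copy of the mitochondrial genome, which no comparison above used, numbered 34 in BxC and 61 in CxB over 4650 bases, above the 3 reads that a count of 0 allows. Where these reads came from was not tested.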

How the results depend on the processing

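With distinct positions in place of reads, the mitochondrial share of the library was 0.0564% in BxC and 0.0525% in CxB, the rRNAs held 25.2% and 29.1% of it, the mRNAs 67.9% and 65.2%, the tRNAs 3.33% and 2.93% and the rest 3.56% and 2.75%. Antisense positions were then 49.7% and 49.1%, the median crossing of boundaries was 45.7% and 45.9%, and 1 gene, of the 10 that could be compared, passed 1.5-fold. Places fill up at these depths, so distinct positions compress differences in level. With each read given to the gene under its first sequenced base, the mRNAs held 88.9% and 87.0%, the tRNAs 0.310% and 0.291% and, in BxC, the rest 0.364%. With sense reads only, the rRNAs held 9.74% and 11.7%, the mRNAs 89.9% and 87.9% and the tRNAs 0.335% and 0.338%. The order of the classes was the same under these 3 settings. The number of genes past 1.5-fold was 6 of 21 with a minimum of 10 reads and 9 of 24 with a minimum of 1 read. It was 6 of 17 with any overlap on the sense strand, against 3 of 15 in the main setting. The lower minima add genes with few reads. The share of nuclear genes past this fold was counted only with at least 100 reads, so these counts have no like share beside them. Over starts without a copy the log2 ratio of mt-Nd2 turned to 0.30, and the cause was not tested. Scaling by the median nuclear gene or by the mitochondrial reads left the count at 3. Under 10 reads were found over 5609 bases in BxC and 6545 in CxB, and 8180 windows had no copy with at most 1 mismatch. No paired analysis was possible because each cross has 1 library. Genes under 100 reads were given no fold, most of them tRNA genes, and exact copies left no readable window of its own in 11 genes.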
